A study of Mus musculus with 30 samples.

Results

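A set of 36 genes that mark disease-associated microglia (DAM) or belong to the lysosome were followed across 30 arrays of mouse hippocampus and rest of the brain. They were picked by name from what is known of microglia around amyloid plaques and of the lysosome. The choice was made with earlier results of these data known, so that counts of members beside all genes are not independent support. The 36 were found among 36717 genes and transcripts through the accessions of their probes, and the brightest probe stood for each gene. They comprise 21 DAM genes, 3 genes of the TREM2 receptor complex and its ligand, 5 cathepsins and 7 other lysosomal genes. All 36 were well above background on at least 1 array and 32 on every array. The exceptions were Cst7 (26 of 30 arrays), Lilrb4a (27), Itgax (20) and Cybb (4).

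Microglia that meet amyloid plaques lower the genes of the resting state and raise a set of genes for lipid handling, phagocytosis and lysosomal digestion. The receptor TREM2 senses lipids and lipoproteins such as APOE, and its adaptor TYROBP carries the signal into the cell, which the later stage of this programme needs. Cathepsins and other acid hydrolases then break down the engulfed material, and several of these lysosomal genes are also active in neurons, astrocytes and the choroid plexus.

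The mice were WT, JHT, 3×TgAD and 3×TgAD-BKO animals of 15–20 months, on a background labelled C57BL/6j. 3×TgAD mice carry human APP with the Swedish mutation and mutant human tau as neuronal transgenes, and their amyloid and tau therefore come from neurons. JHT mice have a deletion of the joining segments of the antibody heavy chain, without which B cells do not mature, and 3×TgAD-BKO mice carry that deletion together with the 3×TgAD alleles. The groups were 2 female (mice 1 and 2) and 3 male 3×TgAD mice (mice 3, 4 and 5), 2 female (mice 6 and 7) and 3 male 3×TgAD-BKO mice (mice 0, 8 and 9), 3 female WT mice (mice 10, 11 and 12) and 2 female JHT mice (mice 13 and 14). Each mouse gave 1 hippocampal array and 1 array of the rest of the brain after perfusion with PBS, and no RNA was pooled. Levels are given as log2 intensities after quantile normalization over the 30 arrays. Changes are differences of these levels, so that a change of 1 is a doubling, and each has its standard error (SE). Adjusted p-values come from limma with Benjamini-Hochberg adjustment over all 36717 genes and transcripts, and the threshold was 0.05. The p-values measure the spread between mice. In such bulk RNA, fewer cells of a type and less RNA per cell cannot be told apart.

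The 12 markers of resting microglia and the 8 of the choroid plexus were found on the arrays, the former on all 30. The 75th percentile of the intensities was 394 to 698 on the hippocampal arrays and 709 to 1384 on those of the rest of the brain, and 52.6% to 62.5% of probes were well above background. Thy1, whose regulatory sequence drives the transgenes, was at 17.95 to 18.28 in the hippocampus of all 10 mice labelled with the transgenes and at 16.85 to 17.06 in the 5 others. All hippocampal 3×TgAD arrays were on 1 slide and all WT and JHT arrays on another, and the same was true of the rest of the brain. 3×TgAD-BKO females were on the slide of the 3×TgAD mice in each tissue, and 3×TgAD-BKO males were spread over the slides. A fixed slide term therefore rested on these males alone. In the hippocampus it set male 0 against males 8 and 9. In the rest of the brain, between the slides of 3×TgAD and WT mice, it set male 8 against male 9. The hippocampal array of 3×TgAD-BKO male 0 had 432 outlier spots, the highest number of any array. Of B-cell genes, no array had Cd79a well above background and 2 had Ms4a1, while 29 of 30 had Cd79b. Cd79b was at 5.32 to 6.62 in JHT mice and 5.19 to 6.58 in 3×TgAD-BKO mice over both tissues, against 5.56 to 8.03 in WT and 5.38 to 6.80 in 3×TgAD mice, and these ranges overlapped, so that these genes do not show the B-cell deletion on the arrays. The summed choroid plexus markers were at 18.31 to 19.06 on 4 hippocampal arrays (3×TgAD male 4, 3×TgAD-BKO female 7 and both JHT mice) and at 13.40 to 15.75 on the 11 others. The summed neutrophil markers were at 13.82 to 15.59 in the hippocampus of 3×TgAD-BKO males 0 and 8 and both JHT mice and at 9.43 to 11.75 in the 11 others.

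The regulatory windows of 27 of the 36 members were found in the RefSeq promoter table of build GRCm38.p6, as 250 bases before and 50 after the transcription start. Mamdc2, Lpl, Cd52, Cd83, Lilrb4a, Fabp5, Cadm1, Tyrobp and Ctsb had no entry. The E-box CACGTG, the core of the element through which TFEB drives lysosomal genes, was found on either strand in 3 of the 27 windows (11.1%) and in 7.15% of all 32851 windows of the table. These 3 were Ctsd, Ctsl and Lamp1, and none of the 14 windows of DAM genes held it. The longer form TCACGTGA, which contains that E-box, was in the window of Ctsd alone among the members and in 0.974% of all windows. GAGGAAGT, a site type of the myeloid factor PU.1, was in 2 of the 27 windows (Spp1 and Gusb) and in 3.2% of all. The windows of Cst7 and Trem2 are shown because these members changed between groups, and those of Ctsd and Lamp1 because they hold the E-box, given in capitals. Each is written 5′ to 3′ on the strand of its gene.
Cst7, chr2:150570165-150570464, plus strand: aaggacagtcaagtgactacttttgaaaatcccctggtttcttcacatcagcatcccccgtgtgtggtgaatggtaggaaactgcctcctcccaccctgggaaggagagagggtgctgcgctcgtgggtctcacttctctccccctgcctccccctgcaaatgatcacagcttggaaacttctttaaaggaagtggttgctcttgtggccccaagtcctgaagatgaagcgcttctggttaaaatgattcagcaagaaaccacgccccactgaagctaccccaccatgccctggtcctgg
Trem2, chr17:48346151-48346450, plus strand: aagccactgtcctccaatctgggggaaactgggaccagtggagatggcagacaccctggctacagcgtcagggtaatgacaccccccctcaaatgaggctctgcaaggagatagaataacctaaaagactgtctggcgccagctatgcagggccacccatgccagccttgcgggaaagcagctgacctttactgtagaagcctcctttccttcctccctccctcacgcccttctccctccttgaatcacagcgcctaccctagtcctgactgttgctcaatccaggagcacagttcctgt
Ctsd, chr7:142387778-142388077, minus strand: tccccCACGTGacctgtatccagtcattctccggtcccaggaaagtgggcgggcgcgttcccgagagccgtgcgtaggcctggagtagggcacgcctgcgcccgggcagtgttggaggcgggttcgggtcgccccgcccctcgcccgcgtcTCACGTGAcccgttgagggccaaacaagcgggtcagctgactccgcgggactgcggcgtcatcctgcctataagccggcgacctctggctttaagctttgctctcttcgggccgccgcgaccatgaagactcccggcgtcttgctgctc
Lamp1, chr8:13158911-13159210, plus strand: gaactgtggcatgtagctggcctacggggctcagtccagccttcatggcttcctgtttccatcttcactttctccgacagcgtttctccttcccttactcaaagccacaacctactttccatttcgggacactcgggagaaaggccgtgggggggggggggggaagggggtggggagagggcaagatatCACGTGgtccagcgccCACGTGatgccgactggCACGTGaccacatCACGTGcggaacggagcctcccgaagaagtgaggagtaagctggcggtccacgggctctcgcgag

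Female 3×TgAD mice had far more Cst7 and Mamdc2 RNA in the hippocampus than female WT mice, and the levels of Lpl and Lilrb4a were also higher in each 3×TgAD female, though neither passed the test. The comparison asks which DAM and lysosomal genes differ with the AD transgenes. Only Cst7 and Mamdc2 of the 36 members passed the threshold, both higher, where 0.746% of all genes passed in either direction and 0.425% were higher. Cst7 encodes cystatin F, an inhibitor of lysosomal cysteine proteases. Its level was 8.89 and 8.81 in the 3×TgAD females and 4.74, 4.94 and 4.88 in the WT females. The groups did not overlap, and the change was 4.0 (SE 0.62), a 16-fold difference (adjusted p = 0.0179, limma). The WT level was near background, with 2 of the 3 arrays well above it. Mamdc2, a proteoglycan gene of the DAM signature, was at 8.58 and 8.50 against 5.37, 5.78 and 5.39. Again no WT mouse came near the 3×TgAD females, with a change of 3.03 (SE 0.50, adjusted p = 0.0259, limma). Several marker sums also separated these mice. Those of resting microglia were at 17.49 and 17.50 in 3×TgAD against 17.20 to 17.28 in WT females, although 6 of the 12 single markers had a positive and 6 a negative change and none passed. The choroid plexus sum was at 15.75 and 15.70 against 14.13 to 14.39, and the neutrophil sum at 10.80 or above against 9.67 to 10.11. The sums of neurons (18.43 and 18.41 against 18.29 to 18.34) and oligodendrocytes (18.19 and 17.79 against 17.56 to 17.76) were higher too. The endothelial sum was lower, at 13.88 and 14.03 against 14.37 to 14.69. The part of these markers in the changes of Cst7 and Mamdc2 was not tested.

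Of the other members, Lpl, the lipase that frees fatty acids from lipoproteins, was at 13.14 and 13.08 in 3×TgAD females against 10.99, 10.78 and 11.02 in WT. These levels did not overlap, but the change of 2.18 (SE 0.57) did not pass (adjusted p = 0.132, limma). The inhibitory receptor gene Lilrb4a was at 7.01 and 6.86 against 4.97, 4.84 and 3.62, a change of 2.46 (SE 0.88, adjusted p = 0.294, limma). Only 1 of the 3 WT arrays measured it well above background, and the gene's other probe, above background on 9 of 30 arrays, had a change of 0.02. Lgals3, which encodes galectin-3, was at 9.54 and 9.28 against 8.32, 8.27 and 8.70, a change of 0.98 (SE 0.37, adjusted p = 0.323, limma). Lilrb4a and Lgals3 were higher in each 3×TgAD female than in any WT female. Itgax, which encodes CD11c and marks plaque-associated microglia, was at 6.01 and 5.83 against 5.76, 5.47 and 5.59, a change of 0.31 (SE 0.62, adjusted p = 0.993, limma).

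The change was positive in 26 of the 36 members and negative in 10, with a median of 0.189 against -0.01 over all genes. Of the 5 cathepsins each had a positive change, from 0.12 to 0.29, and none passed. Ctsa had the 0.29, but its dimmer probe had a change of -0.11, while that of Ctsd had 0.18. Of the members, 18 were higher in every 3×TgAD female than in every WT female, where 18.8% of all genes were. They include Cybb, which no array of either group measured well above background. Cadm1, an adhesion molecule that neurons also make, had the lowest p of the members with negative changes, at -0.43 (SE 0.15, adjusted p = 0.276, limma), which was -0.23 without female 1 and -0.63 without female 2. Among the other genes of the programme, 1 of 23 further DAM genes passed, Cox6a2, a muscle-type subunit of cytochrome oxidase, which fell by 1.63 on the log2 scale (adjusted p = 0.0196, limma). None of 44 further lysosomal genes and none of 12 genes of TREM2 signalling passed. The 3×TgAD and WT arrays were on different slides, and only the 3×TgAD-BKO males were on both. A fixed slide block therefore rested on 3×TgAD-BKO male 0, the array with the most outlier spots, against males 8 and 9. With it the change was 2.77 for Cst7 (adjusted p = 0.134, limma) and 1.33 for Mamdc2 (adjusted p = 0.211, limma). Lpl, Grn and Cd68 then passed, and over all genes 1516 were higher and 1744 lower, against 156 and 118 without the block. A group left with 1 array when a mouse is left out, here and in later comparisons, is assumed to vary like the other groups. Leaving out any 1 of the 5 mice gave an adjusted p of 0.0545 to 0.0822 for Cst7 and 0.0579 to 0.109 for Mamdc2, and leaving out the 4 arrays high in choroid plexus markers 0.0517 and 0.0767.

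**Figure D1:**
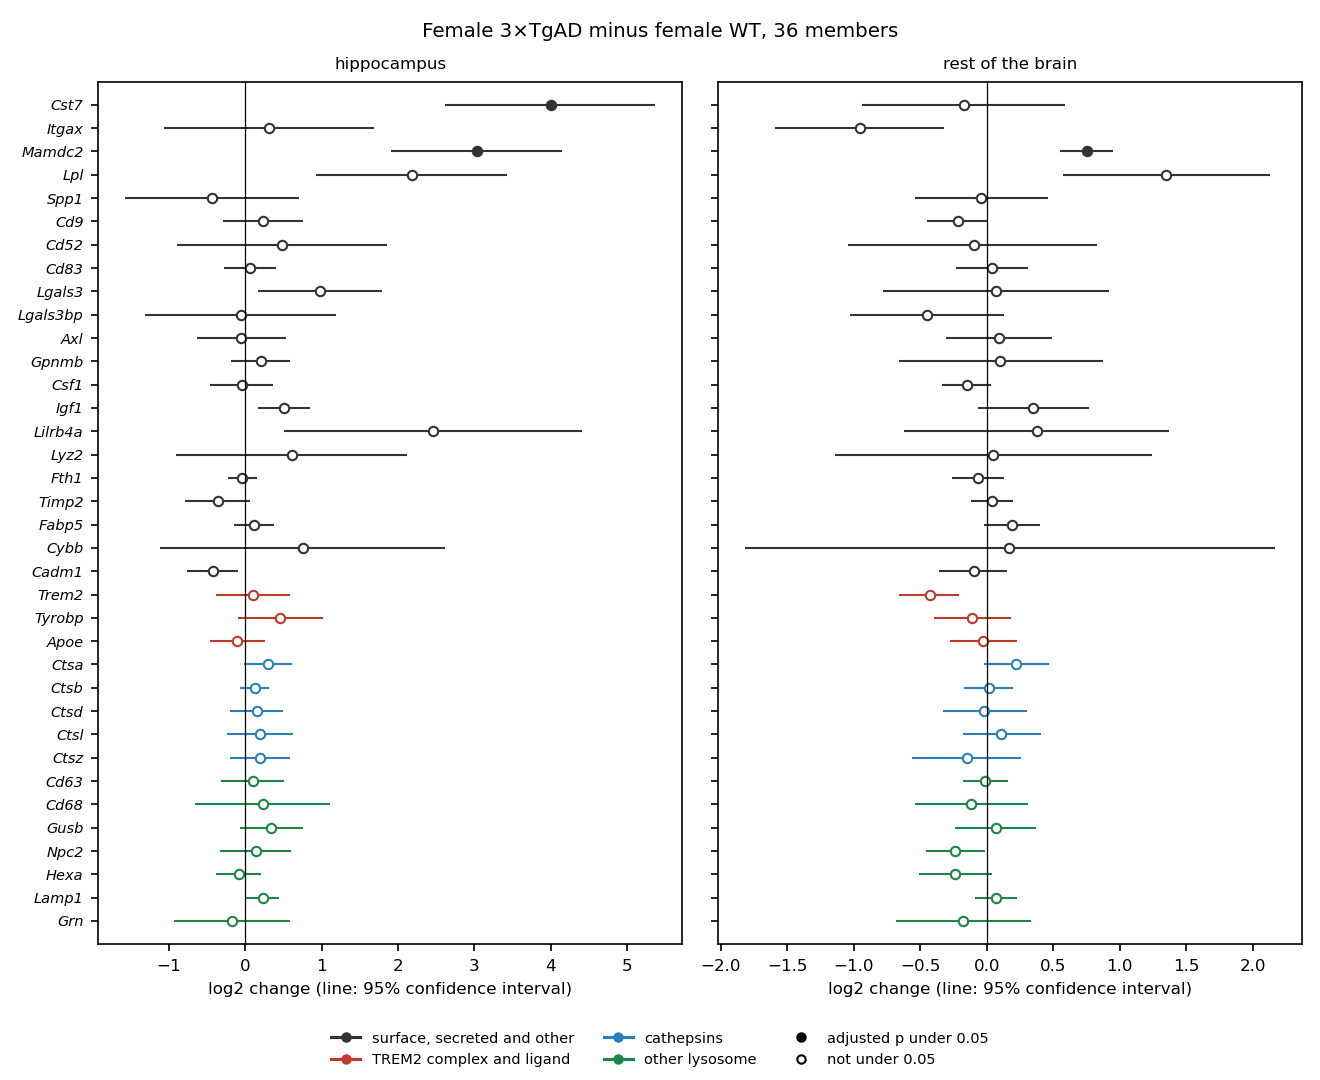
Change of each of the 36 members between female 3×TgAD and female WT mice, in log2 units, with its 95% confidence interval, in the hippocampus and in the rest of the brain. Filled points passed an adjusted p of 0.05: Cst7 and Mamdc2 in the hippocampus and Mamdc2 in the rest of the brain.

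In the rest of the brain Mamdc2 alone of the 36 members passed between 3×TgAD and WT females, where 1.15% of all genes did. Its level was 8.10 and 8.02 in the 3×TgAD females and 7.32, 7.36 and 7.25 in the WT females. The levels did not overlap, as for 17.3% of all genes in this direction, and the change was 0.75 (SE 0.09, adjusted p = 0.0024, limma). The call stood without any 1 mouse, with changes of 0.71 to 0.79 and, without a 3×TgAD female, the spread taken from the other groups. It was lost with the slide as a fixed block (adjusted p = 0.0601), with the groups compared alone (0.0584), with the methods' t-test (0.099) and with all 30 arrays in one fit (0.608). The neutrophil sum was higher in these 3×TgAD females (11.89 and 13.64 against 10.32 to 10.98) and the endothelial sum lower (13.91 and 13.98 against 14.44 to 14.71), without overlap, and their part in the change of Mamdc2 was not tested. Cst7 was at 6.14 and 6.00 in 3×TgAD females against 6.31, 6.29 and 6.11 in WT, and these ranges overlapped. The change of Cst7 was thus 4.17 (SE 0.73) larger in the hippocampus than in the rest of the brain, and this difference passed (adjusted p = 0.0308, limma), where 0.0926% of all genes passed. It lost that call without any 1 of the 5 mice (adjusted p of 0.0543 to 0.0862). For Mamdc2 the same difference was 2.28 (SE 0.52, adjusted p = 0.141, limma).

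Lpl was again higher in each 3×TgAD female, at 10.90 and 11.11 against 9.39, 9.85 and 9.71, a change of 1.35 (SE 0.35, adjusted p = 0.124, limma). Itgax ran the other way, at 5.59 and 5.19 against 6.55, 6.31 and 6.19, a change of -0.95 (SE 0.29, adjusted p = 0.198, limma). The 5 WT and JHT mice had Itgax levels of 5.95 to 6.55 in this tissue and the 10 mice with the transgenes 4.33 to 5.59, so that these ranges did not overlap, as for 0.447% of all genes in this direction. Mice 5, 7, 8 and 9, which have the transgenes, did not measure Itgax well above background there. Over the 36 members the median change was -0.012, with 17 positive and 19 negative. No further DAM or lysosomal gene passed, and of the TREM2 signalling genes Pik3cg, a PI3-kinase subunit, was higher by 1.47 (adjusted p = 0.046, limma).

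**Figure D2:**
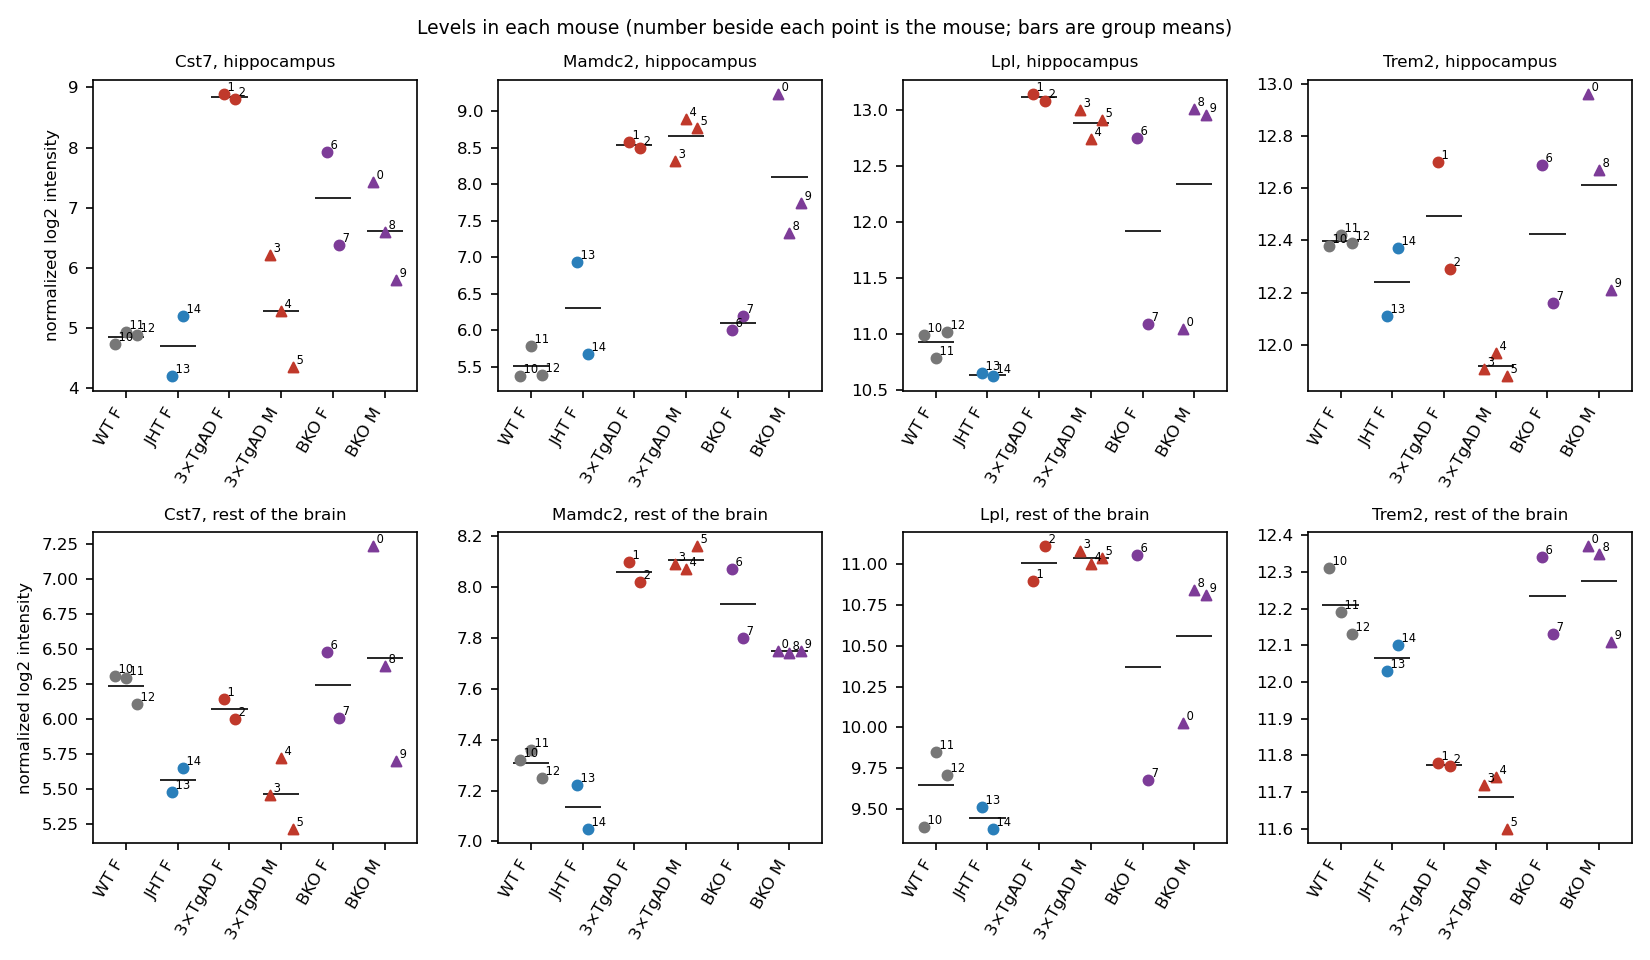
Normalized log2 intensity of Cst7, Mamdc2, Lpl and Trem2 in each mouse, by group, in the hippocampus (upper row) and the rest of the brain (lower row); points carry the number of the mouse, triangles are males, bars are group means, and BKO stands for 3×TgAD-BKO. Mamdc2 separates 3×TgAD from WT and JHT mice in both tissues, Lpl is low in 3×TgAD-BKO mice 0 and 7 in both tissues, and Trem2 in the rest of the brain is lowest in the 5 3×TgAD mice.

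In the hippocampus of females, Mamdc2, Itgax, Cst7 and Lpl were each at lower levels in both 3×TgAD-BKO than in both 3×TgAD mice. None of the 36 members passed the threshold (limma), where 0.37% of all genes passed, and 32.1% of all genes were lower in this way. At an unadjusted p of 0.05, 3 members were higher and 7 lower, where 16.4% of all genes passed in either direction. The comparison asks whether DAM genes depend on B cells. Both groups were on 1 slide. The summed markers of resting microglia were at 17.39 and 17.21 in 3×TgAD-BKO against 17.49 and 17.50 in 3×TgAD females. The sums of border macrophages (11.41 and 11.89 against 10.23 and 10.75), of neutrophils (11.75 and 11.66 against 11 and 10.80) and of endothelium (14.42 and 14.38 against 13.88 and 14.03) were higher, and those of neurons (18.25 and 18.19 against 18.43 and 18.41) and astrocytes (18.30 and 18.15 against 18.42 and 18.35) lower. None of these overlapped, and their part in the levels of the members was not tested. Mamdc2 was at 6.00 and 6.19 in the 3×TgAD-BKO females against 8.58 and 8.50 in the 3×TgAD females, with no overlap, a change of -2.44 (SE 0.55, adjusted p = 0.105, limma). Itgax was at 4.44 and 3.21, not well above background on either array, against 6.01 and 5.83. With each of these 2 arrays set to the lowest signal well above background on it, or the probe's own where higher, the 3×TgAD-BKO females were at least 2.99-fold lower (adjusted p = 0.193, limma). The measured change was -2.71 without female 6 and -1.48 without female 7. The 3×TgAD-BKO females were also at least 2.62-fold below the JHT females, at 5.62 and 5.84 (adjusted p = 0.435, limma). Against JHT females their sums of neutrophils (11.75 and 11.66 against 13.82 and 15.59), endothelium (14.42 and 14.38 against 14.63 and 14.76) and astrocytes (18.30 and 18.15 against 18.35 and 18.43) were lower. The part of these markers was not tested. No member passed between these groups, where 0.229% of all genes did, and 2 were higher and 3 lower at an unadjusted p of 0.05, against 9.78% of all genes in either direction. Cst7 was at 7.93 and 6.39 in the 3×TgAD-BKO females, both below the 3×TgAD females, a change of -1.69 (SE 0.68, adjusted p = 0.257, limma) that was -2.46 without female 6 and -0.92 without female 7, and both above the JHT females at 4.20 and 5.21 (change 2.45, SE 0.68, adjusted p = 0.319, limma). The latter change was 1.68 without female 6 and 3.22 without female 7.

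Lpl was at 12.75 in 3×TgAD-BKO female 6 and at 11.09 in female 7, a change of -1.19 (SE 0.62, adjusted p = 0.374, limma) that was -2.02 without female 6 and -0.36 without female 7. Cd83, which encodes a surface molecule of activated antigen-presenting cells, was at 11.10 and 10.73 against 11.83 and 11.42, a change of -0.71 (SE 0.17, adjusted p = 0.114, limma). Cd83 was lower in all 5 3×TgAD-BKO mice of both sexes (10.73 to 11.34) than in all 5 3×TgAD mice (11.39 to 11.83), as were 0.839% of all genes, with a change of -0.46 (SE 0.11, adjusted p = 0.102, limma). Lgals3bp, which encodes a galectin-3 binding glycoprotein, had the largest positive change, 1.03 (SE 0.62, adjusted p = 0.447, limma), from levels of 11.85 and 13.20 against 11.47 and 11.52. The higher value belongs to mouse 7, whose choroid plexus marker sum was 18.92 against 14.60 in mouse 6, and the part of these markers in the result was not tested. The change was 1.71 without mouse 6 and 0.36 without mouse 7. Among cathepsins, Ctsa, a serine carboxypeptidase, was at 14.30 and 14.11 against 14.79 and 14.65 (change -0.51, SE 0.16, adjusted p = 0.178, limma), while its dimmer probe had a change of 0.02. Ctsb, a cysteine protease, was at 15.15 and 15.12 against 15.42 and 15.37 (change -0.26, SE 0.09, adjusted p = 0.219, limma). Over all 36 members the median change was 0.062 against -0.017 over all genes, 20 were positive and 16 negative. None of the further DAM, lysosomal and TREM2 signalling genes passed.

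In males no member passed either (limma), where 0.847% of all genes did, and 4 were higher and 3 lower at an unadjusted p of 0.05, against 18.2% of all genes. Mamdc2 was at 9.23, 7.33 and 7.74 in the 3×TgAD-BKO males against 8.32, 8.89 and 8.76 in the 3×TgAD males, and the ranges overlapped. Cst7 was at 7.43, 6.60 and 5.81 against 6.21, 5.29 and 4.36, and these overlapped too. Igf1, a growth factor of DAM, was at 8.50, 8.36 and 8.22 against 7.79, 7.70 and 7.85, with no overlap (as for 11.3% of all genes in this direction) and a change of 0.58 (SE 0.14, adjusted p = 0.0835, limma). In females Igf1 was lower in both 3×TgAD-BKO mice (7.76 and 7.88 against 8.18 and 8.25), and the difference between the sexes was -0.97 (SE 0.22, adjusted p = 0.0732, limma), female minus male. The same difference was -3.02 for Cst7 (SE 0.88, adjusted p = 0.0934, limma), and it was -3.79 without 3×TgAD-BKO female 6 and -2.25 without female 7. Itgax was at 6.18, 4.33 and 3.62 in the 3×TgAD-BKO males against 4.49, 3.92 and 3.59, so that the means (4.71 and 4.0) ran opposite to those of the females while the levels overlapped. With 1 of the 3 arrays well above background in each male group and neither array of the 3×TgAD-BKO females, its difference between the sexes of -2.80 (SE 0.87, adjusted p = 0.108, limma) rests largely on levels near background. No member passed this test, where 0.0245% of all genes did, and 13 had an unadjusted p under 0.05, against 21.2% of all genes. Outside the hippocampus none passed it, where 0.101% of all genes did, and none had an unadjusted p under 0.05, against 8.75% of all genes. Cst7 differed by 3.56 (SE 0.62, adjusted p = 0.151, limma) between female and male 3×TgAD mice themselves, and every female was above every male, as for 17.4% of all genes. The sums of resting microglia (17.49 and 17.50 against 17.12 to 17.31) and neurons (18.43 and 18.41 against 18.32 to 18.37) were higher in these females too. Their part was not tested. No member passed that comparison, where 0.0409% of all genes did and 5 members were higher and 2 lower at an unadjusted p of 0.05, against 11% of all genes. Outside the hippocampus none passed either, where 0.0572% of all genes did, and Itgax alone was higher and none lower at an unadjusted p of 0.05, against 3.46% of all genes.

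Lgals3 was at 8.09, 8.63 and 8.10 in the 3×TgAD-BKO males against 8.78, 9.94 and 9.39 (change -1.09, SE 0.33, adjusted p = 0.136, limma). Ctsz, a lysosomal carboxypeptidase, was at 11.73, 12.19 and 12.02 against 12.54, 12.76 and 12.27 (change -0.54, SE 0.16, adjusted p = 0.127, limma). Neither gene overlapped between the groups, as for 9.19% of all genes in this direction, and the highest value of each was that of 3×TgAD male 4, whose choroid plexus sum was 19.06. That sum was higher in all 3×TgAD males (15.17 to 19.06) than in all 3×TgAD-BKO males (13.40 to 14.72), while the sums of endothelium (13.91 to 14.17 against 14.42 to 14.85) and border macrophages (10.50 to 11.19 against 11.24 to 12.29) were lower, and their part in the changes was not tested. Without the 4 hippocampal arrays high in these markers, the changes were -0.81 and -0.43. Grn, which encodes the lysosomal protein progranulin, was at 10.82 in 3×TgAD-BKO male 0, the array with the outlier spots, and at 12.21 and 12.20 in the other two. With the slide as a fixed block, where that mouse is the 3×TgAD-BKO male on the slide of the 3×TgAD males, 13 members passed, Cd68 and Grn with the lowest p-values, and over all genes 3582 were then higher and 2064 lower, against 222 and 89 without the block. In the lists of other genes, Ppt1, which removes fatty acids from lysosomal proteins, changed by -0.71 (SE 0.09, adjusted p = 0.00487, limma), and over both sexes by -0.63 (adjusted p = 0.00153, limma). Over both sexes no member passed, where 1.02% of all genes did, and 2 were higher and 3 lower at an unadjusted p of 0.05, against 10.5% of all genes. Of the other lists, Cp, the ferroxidase ceruloplasmin, was higher by 1.56 (adjusted p = 0.0336, limma) and Card9, an adaptor downstream of such receptors, by 1.43 (adjusted p = 0.0272, limma), with 1 of 5 3×TgAD arrays above background for Card9.

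**Figure D3:**
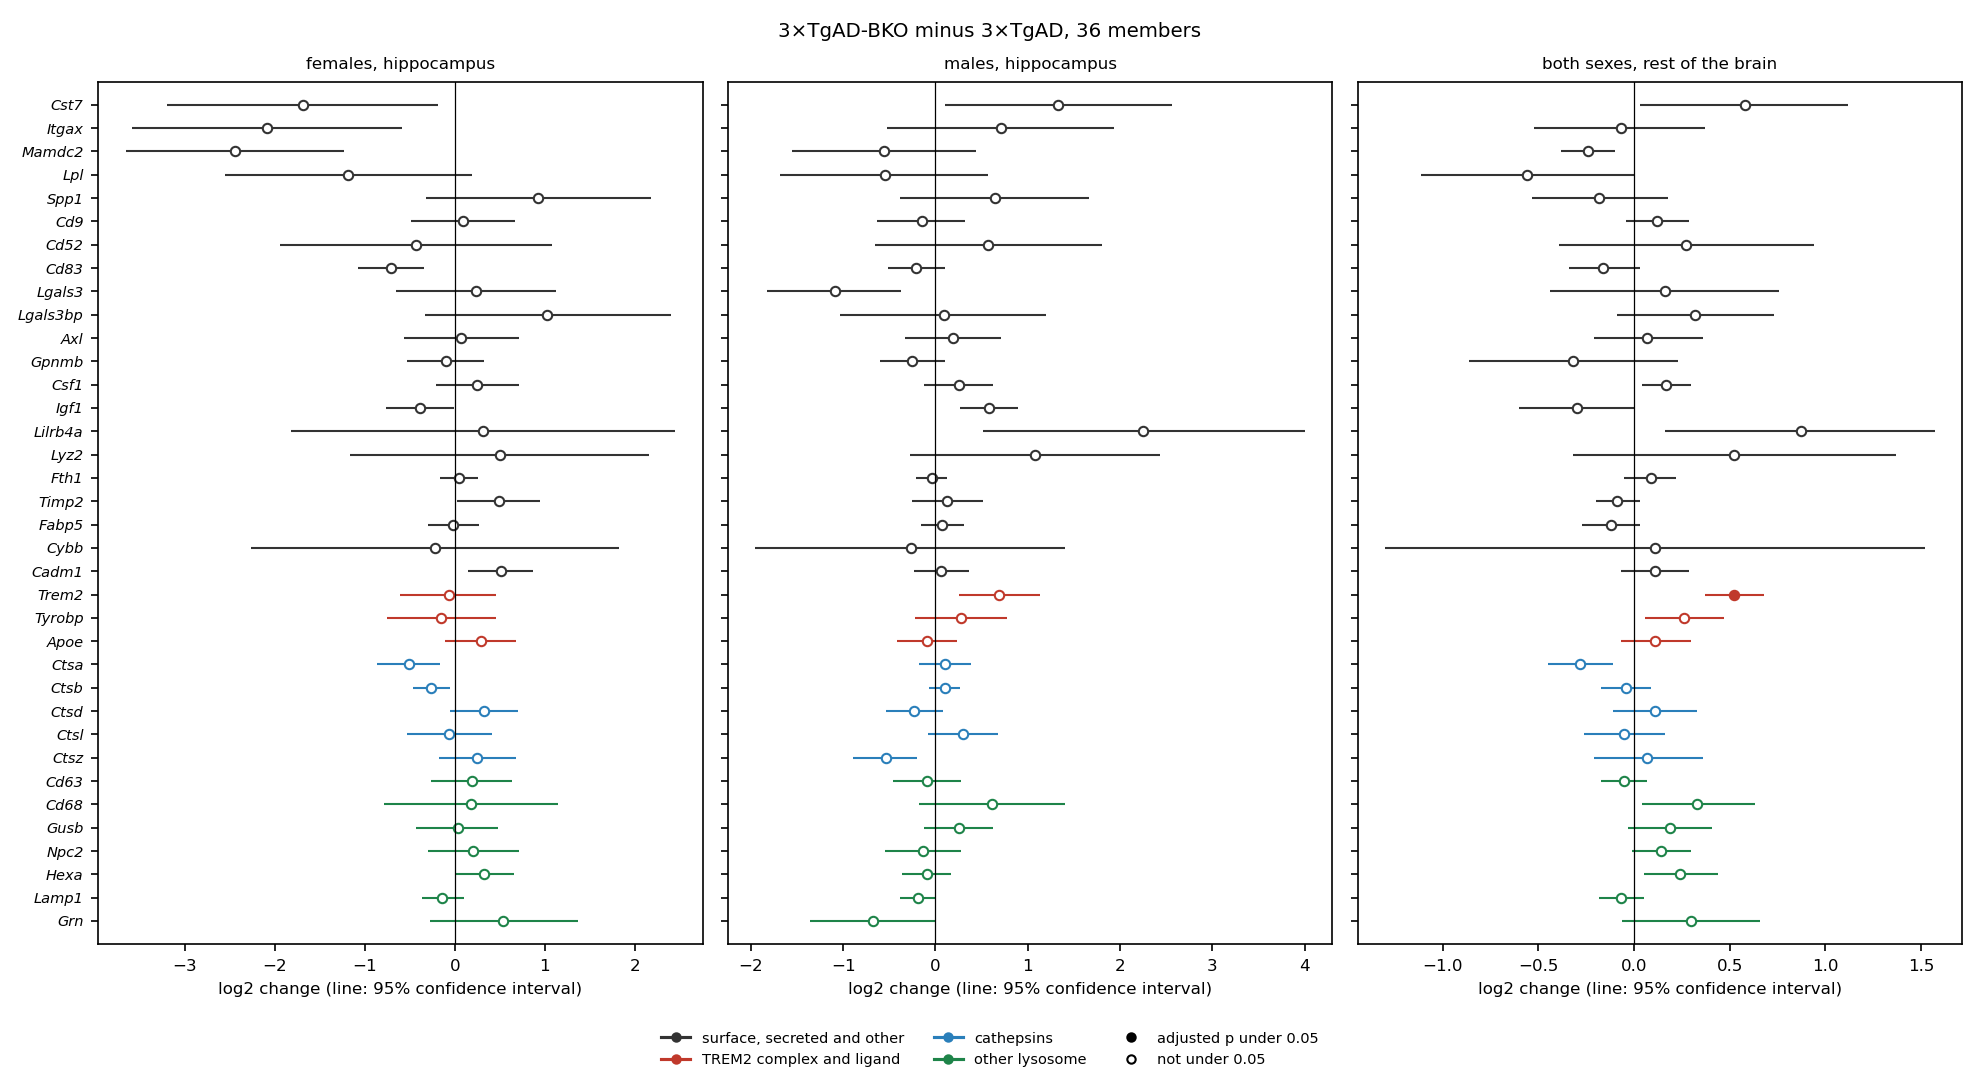
Change of each of the 36 members between 3×TgAD-BKO and 3×TgAD mice, in log2 units, with its 95% confidence interval, for females and males in the hippocampus and for both sexes in the rest of the brain (axes differ between panels). Trem2 in the rest of the brain is the only filled point, which marks an adjusted p under 0.05.

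Trem2, the lipid-sensing receptor, was the only member past the threshold between 3×TgAD-BKO and 3×TgAD mice, and this was in the rest of the brain, where it was higher in 3×TgAD-BKO mice. Its level was 11.78 and 11.77 in 3×TgAD females and 11.72, 11.74 and 11.60 in 3×TgAD males. In 3×TgAD-BKO mice it was 12.34 and 12.13 in females and 12.37, 12.35 and 12.11 in males. No value overlapped, as for 2.42% of all genes in this direction, and the change was 0.52 (SE 0.07, adjusted p = 0.00333, limma) over both sexes. In males it was 0.59 (SE 0.09, adjusted p = 0.0123, limma) and in females 0.46 (SE 0.11), which did not pass (adjusted p = 0.0878, limma). Of all genes, 2.64% passed over both sexes, 0.961% in males and 1.12% in females, where no member passed and 1 was higher and 1 lower at an unadjusted p of 0.05, against 12.9% of all genes. The difference of Trem2 between the sexes was not past the threshold (-0.13, SE 0.14, adjusted p = 0.81, limma). The change over both sexes kept its call when each mouse was left out (0.47 to 0.58) and within the slide that holds the 3×TgAD mice (0.56, adjusted p = 0.0198). In males it lost the call without 3×TgAD male 5 (adjusted p = 0.0524), within that slide (0.66, adjusted p = 0.0577) and without 3×TgAD-BKO males 0 and 8, which were high in neutrophil markers (0.43, adjusted p = 0.147).

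The summed markers of resting microglia in the rest of the brain were at 16.93 to 17.03 in 3×TgAD-BKO females and 16.92 to 17.06 in 3×TgAD-BKO males, against 16.99 to 17.06 and 16.85 to 16.94 in 3×TgAD females and males, and these ranges overlapped. The summed pan-myeloid markers were at 16.12 to 16.52 in 3×TgAD-BKO males against 15.74 to 15.98 in 3×TgAD males, with no overlap, and at 15.69 to 15.88 against 15.75 to 16.00 in females, where the ranges overlapped. The summed endothelial markers were higher in 3×TgAD-BKO mice of both sexes without overlap, at 14.39 to 14.68 against 13.86 to 14.21 in males and 14.21 to 14.40 against 13.91 to 13.98 in females. Other sums separated the mice of 1 sex. In males, neutrophil markers were higher in 3×TgAD-BKO mice (12.14 to 15.92 against 10.34 to 12.03) and those of neurons lower (18.20 to 18.33 against 18.35 in each). In females, those of border macrophages (11.57 and 11.75 against 11.09 and 11.48) and oligodendrocytes (18.36 and 18.23 against 18.16 and 18.18) were higher and those of astrocytes lower (18.64 and 18.66 against 18.74 and 18.67). The part of these markers in the change of Trem2 was not tested. Of the 12 markers of resting microglia, Fcrls alone passed over both sexes, higher in 3×TgAD-BKO mice by 1.07 (SE 0.18, adjusted p = 0.0126, limma).

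WT females had Trem2 levels of 12.31, 12.19 and 12.13 in the rest of the brain and JHT females 12.03 and 12.10. The 5 3×TgAD mice were therefore the lowest of all 15, and 3×TgAD females differed from WT females by -0.43 (SE 0.10, adjusted p = 0.0806, limma). In the hippocampus Trem2 was at 12.70 and 12.29 in 3×TgAD females, 11.91, 11.97 and 11.88 in 3×TgAD males, 12.69 and 12.16 in 3×TgAD-BKO females, and 12.96, 12.67 and 12.21 in 3×TgAD-BKO males. WT females were there at 12.38, 12.42 and 12.39, inside the range of the 3×TgAD females. The hippocampal changes were 0.10 (SE 0.22, adjusted p = 1, limma) between 3×TgAD and WT females, -0.07 (SE 0.24, adjusted p = 0.993, limma) with B-cell loss in females and 0.69 (SE 0.20, adjusted p = 0.124, limma) in males.

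Tyrobp, the adaptor, was at 12.25 and 12.34 in the rest of the brain of 3×TgAD females, 12.26, 12.19 and 12.15 in 3×TgAD males, 12.53 and 12.33 in 3×TgAD-BKO females and 12.62, 12.77 and 12.37 in 3×TgAD-BKO males. It was higher in each 3×TgAD-BKO male than in any 3×TgAD male, as for 7.75% of all genes, with a change of 0.39 (SE 0.12, adjusted p = 0.217, limma), and by 0.14 in females (SE 0.14, adjusted p = 0.795, limma). Against WT females (12.50, 12.38 and 12.34) the 3×TgAD females differed by -0.11 (SE 0.13, adjusted p = 0.867, limma). In the hippocampus Tyrobp was at 12.80 and 12.39 in 3×TgAD females, 12.16, 12.06 and 12.19 in WT females and 12.65 and 12.23 in 3×TgAD-BKO females. There the change was 0.45 (SE 0.25, adjusted p = 0.539, limma) with the transgenes, from 0.25 without female 1 to 0.66 without female 2, and -0.15 (SE 0.27, adjusted p = 0.914, limma) with B-cell loss.

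Apoe, the lipoprotein gene that astrocytes make in bulk, varied little, from 17.01 to 17.64 in the hippocampus and from 17.28 to 17.79 in the rest of the brain over 15 mice each. In the hippocampus it was at 17.38 and 17.22 in 3×TgAD females, 17.38, 17.33 and 17.50 in WT females and 17.53 and 17.64 in 3×TgAD-BKO females. Its changes there were -0.11 (SE 0.16, adjusted p = 0.947, limma) with the transgenes and 0.29 (SE 0.18, adjusted p = 0.473, limma) with B-cell loss. Its changes in the other tissue were -0.03 (SE 0.12, adjusted p = 1, limma) and 0.03 (SE 0.13, adjusted p = 0.984, limma).

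In the rest of the brain Csf1, which encodes a growth factor of microglia, was higher in all 5 3×TgAD-BKO mice (10.88 to 11.07) than in all 5 3×TgAD mice (10.70 to 10.85), as for 2.42% of all genes, with a change of 0.17 (SE 0.06, adjusted p = 0.186, limma). Ctsa was lower in females, at 14.21 and 14.29 against 14.67 and 14.64 (change -0.41, SE 0.12, adjusted p = 0.158, limma). Of 44 further lysosomal genes, Ctsc, a cysteine protease, was higher over both sexes by 0.99 (adjusted p = 0.0261, limma), while Galc and Ppt1, a lipid hydrolase and a thioesterase, changed by -0.48 and -0.39 (adjusted p = 0.022 and 0.0285, limma). None of 23 further DAM genes passed. Of the 12 TREM2 signalling genes, Card9 alone passed. It was higher by 1.90 (adjusted p = 0.0316, limma), though only 3 of the 5 3×TgAD arrays measured it above background.

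Mamdc2 in 3×TgAD-BKO mice stayed above the level of mice without the transgenes in the rest of the brain. It was at 8.07 and 7.80 in 3×TgAD-BKO females against 7.22 and 7.05 in JHT females, a change of 0.80 (SE 0.10, adjusted p = 0.00424, limma). It was the only member to pass between these groups, where 0.667% of all genes did, and with the slide as a fixed block its adjusted p was 0.0684. Sums of neutrophil (12.24 and 13.40 against 14.25 and 15.78), endothelial (14.40 and 14.21 against 14.56 and 14.64), astrocyte (18.64 and 18.66 against 18.71 and 18.69) and pan-myeloid markers (15.88 and 15.69 against 15.93 and 15.94) were lower in these 3×TgAD-BKO females and that of oligodendrocytes higher (18.36 and 18.23 against 18.17 and 18.04), and their part in the change was not tested. Relative to the 3×TgAD mice (8.02 to 8.16 over both sexes), the 3×TgAD-BKO females differed by -0.12 (SE 0.10, adjusted p = 0.681, limma) and the males, all at 7.74 or 7.75, by -0.36 (SE 0.08, adjusted p = 0.074, limma). In the hippocampus the interaction of B-cell loss and transgenes for Mamdc2 in females was -3.23 (SE 0.74, adjusted p = 0.146, limma). No member passed the interaction in either tissue, where 0.131% of all genes passed in the hippocampus and 0.379% in the rest of the brain. At an unadjusted p of 0.05, 7 members passed in the hippocampus and 2 in the rest of the brain, against 13.5% and 8.51% of all genes. The change with B-cell loss in females passed a test of its difference between the tissues for none of the members, where 0.123% of all genes passed and 5 members had an unadjusted p under 0.05, against 9.9% of all genes.

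Lpl showed 2 separate levels among the 3×TgAD-BKO mice. In the hippocampus it was at 12.75, 13.01 and 12.95 in mice 6, 8 and 9, close to the 12.74 to 13.14 of all 5 3×TgAD mice. In mice 7 and 0 it was at 11.09 and 11.04, close to the 10.62 to 11.02 of the 5 WT and JHT mice. The same mice split in the same way in the rest of the brain, at 11.06, 10.84 and 10.81 against 9.68 and 10.03, where 3×TgAD mice were at 10.90 to 11.11 and WT and JHT mice at 9.38 to 9.85. Both low mice had the raised Thy1 signal of the transgenes, and mice 6 and 7 were of 1 sex and on 1 slide. The hippocampal array of mouse 0 had the most outlier spots and that of mouse 7 a choroid plexus sum of 18.92. Border macrophage sums there were 12.29 and 11.89 in mice 0 and 7, against 11.24 to 11.54 in mice 6, 8 and 9. In the rest of the brain those sums overlapped. This split was noticed after the values were seen, and its cause was not tested.

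Between JHT and WT females, the comparison of B-cell loss without the transgenes, no member passed in either tissue, where 0.0926% of all genes passed in the hippocampus and 0.161% in the rest of the brain. At an unadjusted p of 0.05, 5 members were higher and none lower in the hippocampus, and 1 was higher in the rest of the brain, against 7.83% and 6.31% of all genes in either direction. Lgals3 was at 9.91 and 10.69 in the hippocampus of JHT females against 8.32, 8.27 and 8.70 in WT (change 1.87, SE 0.37, adjusted p = 0.217, limma). Lilrb4a was at 7.48 and 7.63 against 4.97, 4.84 and 3.62 (change 3.08, SE 0.88, adjusted p = 0.462, limma), with 1 of the 3 WT arrays well above background. Lyz2, the lysozyme of myeloid cells, was at 7.18 and 9.02 against 6.46, 5.87 and 6.38 (change 1.87, SE 0.68, adjusted p = 0.574, limma), a change that was 0.95 without female 14 and 2.79 without female 13. None of these groups overlapped, as for 13% of all genes in this direction. The border macrophage sum was also higher in JHT females (11.39 and 11.49 against 10.71 to 11.04), as were those of neutrophils and the choroid plexus. The neuron sum was lower (18.23 and 18.24 against 18.29 to 18.34). The part of these markers in the changes was not tested. Outside the hippocampus Lilrb4a was at 8.46 and 8.75 against 7.54, 7.06 and 7.05 (change 1.38, SE 0.45, adjusted p = 0.581, limma).

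Some members were high where markers of other cells were high. All 7 neutrophil markers with a probe were well above background on at least 1 of the hippocampal JHT arrays, with sums of 13.82 and 15.59 against 9.67 to 10.11 in WT females. Lilrb4a was at 9.40, 9.03, 8.46 and 8.75 in the rest of the brain of mice 0, 8, 13 and 14, which had neutrophil sums of 14.25 to 15.92, and at 7.05 to 8.25 in the 11 other mice, with sums of 10.32 to 13.64. It was the only member higher in those 4 mice than in all others in that tissue, where 0.305% of all genes were. In the hippocampus Lilrb4a was at 7.28 to 8.70 in the 4 mice high in neutrophil markers and at 3.37 to 7.46 in the others, and these ranges overlapped. No other member was higher in all 4 of them than in all others either, but the share of all genes was not computed for this split. On the 4 hippocampal arrays high in choroid plexus markers, Lgals3 (9.91 to 10.69), Ctsz (12.75 to 12.81) and Cd63 (14.74 to 15.14), a tetraspanin of late endosomes, were the 3 members above all 11 other arrays, which were at 8.09 to 9.54, 11.73 to 12.70 and 14.42 to 14.69. Of all genes, 0.793% were above all other arrays in this way. All 8 choroid plexus markers were above background in every group. The part of these other cells in the levels of the members was not tested.

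**Figure D4:**
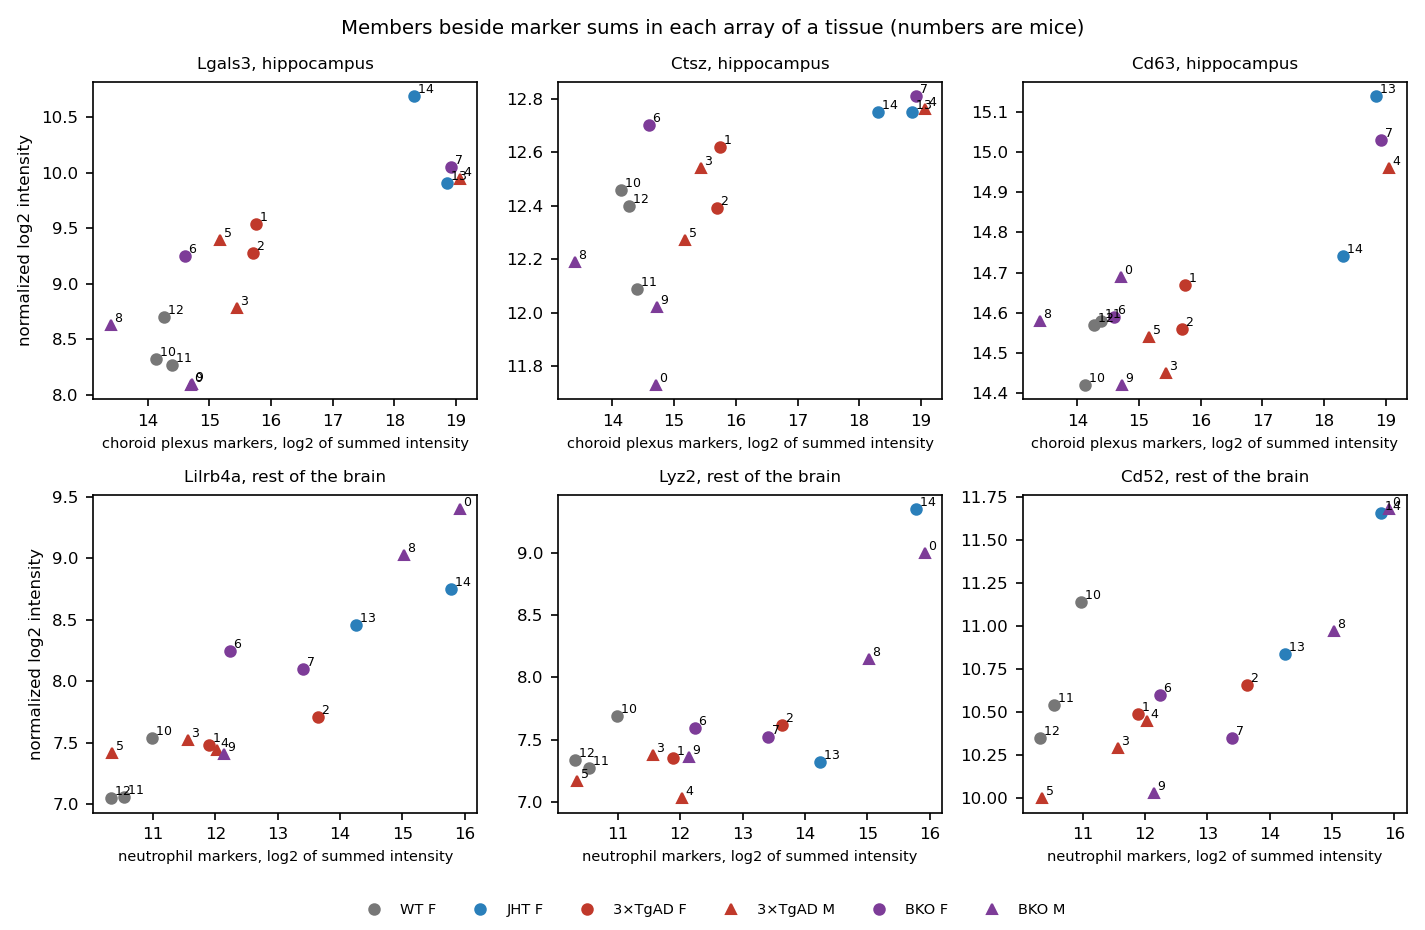
Normalized log2 intensity of Lgals3, Ctsz and Cd63 against the summed choroid plexus markers on the 15 hippocampal arrays, and of Lilrb4a, Lyz2 and Cd52 against the summed neutrophil markers on the 15 arrays of the rest of the brain; numbers are mice, and BKO stands for 3×TgAD-BKO. Lgals3, Ctsz and Cd63 are higher on the 4 arrays with choroid plexus sums of 18.31 to 19.06 than on the others, and Lilrb4a is higher in the 4 mice with neutrophil sums of 14.25 to 15.92.

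Between the tissues, 16 of the 36 members differed over the mean of the 6 groups, 6 higher and 10 lower in the hippocampus, against 51.1% of all genes, 25.1% higher and 26% lower. Spp1, which encodes osteopontin, was at 6.39 to 8.46 (median 7.36) in the hippocampus and at 10.06 to 10.89 (median 10.60) in the rest of the brain, a change of -3.23 (SE 0.17, adjusted p = 1.82e-12, limma). Cd83 was at 10.73 to 11.83 (median 11.39) against 12.15 to 12.65 (median 12.45), a change of -1.10 (SE 0.06, adjusted p = 1.75e-12, limma). Ctsb was at 15.12 to 15.42 (median 15.28) against 15.56 to 15.85 (median 15.73). Its change was -0.45 (SE 0.03, adjusted p = 4.61e-10, limma), and 1 of 22 alternatives lost its call (adjusted p = 0.0616, limma). These 3 were the only members whose 15 hippocampal levels all lay on one side of the 15 others, as 4.69% of all genes did in this direction. The other members that were lower in the hippocampus were Lilrb4a (-1.51), the growth factor Igf1 (-0.74), the protease Ctsl (-0.62), Mamdc2 (-0.51), Lgals3 (-0.43), the lysosomal membrane protein Lamp1 (-0.32) and the metalloprotease inhibitor Timp2 (-0.20), whose dimmer probe had a change of 0.06. Lgals3 lost its call without any 1 of 6 mice (0, 1, 2, 5, 6 or 10), with an adjusted p of up to 0.0821.

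Ctsl was at 13.65 to 14.44 (median 13.96) in the hippocampus and at 14.29 to 14.75 (median 14.59) in the rest of the brain. Those that were higher were Lpl (1.62), the glycoprotein Gpnmb (0.88), Cadm1 (0.50), Grn (0.40), the hexosaminidase subunit Hexa (0.36) and Trem2 (0.31). Gpnmb was at 7.61 to 8.35 (median 8.05) against 6.52 to 8.05 (median 7.11). The difference was -0.04 for Tyrobp (SE 0.08, adjusted p = 0.708, limma) and -0.02 for Apoe (SE 0.06, adjusted p = 0.788, limma). Among 23 further DAM genes, 12 were lower and 1 was higher, and among 44 further lysosomal genes 14 were lower and 11 higher. With quantile normalization within each tissue the median over all genes moved to -0.771, and Trem2, Grn, Hexa, Cadm1 and Gpnmb then had negative changes, of -0.06 to -0.74, each less negative than that median. Under that scaling 956 of all genes were higher and 28949 lower, against 9226 and 9547. Timp2 became 0.06 with scaling to the 75th percentile, where the median over all genes was 0.282, or with the deposited scores, and Lamp1 0.02 with the scores. Tissue and slide were largely confounded, and the slide with arrays of both tissues held 1 array of the rest of the brain, that of 3×TgAD-BKO male 0. Spp1 was at 10.23 on it and at 7.36 and 7.26 on the hippocampal arrays of males 8 and 9 on that slide.

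**Figure D5:**
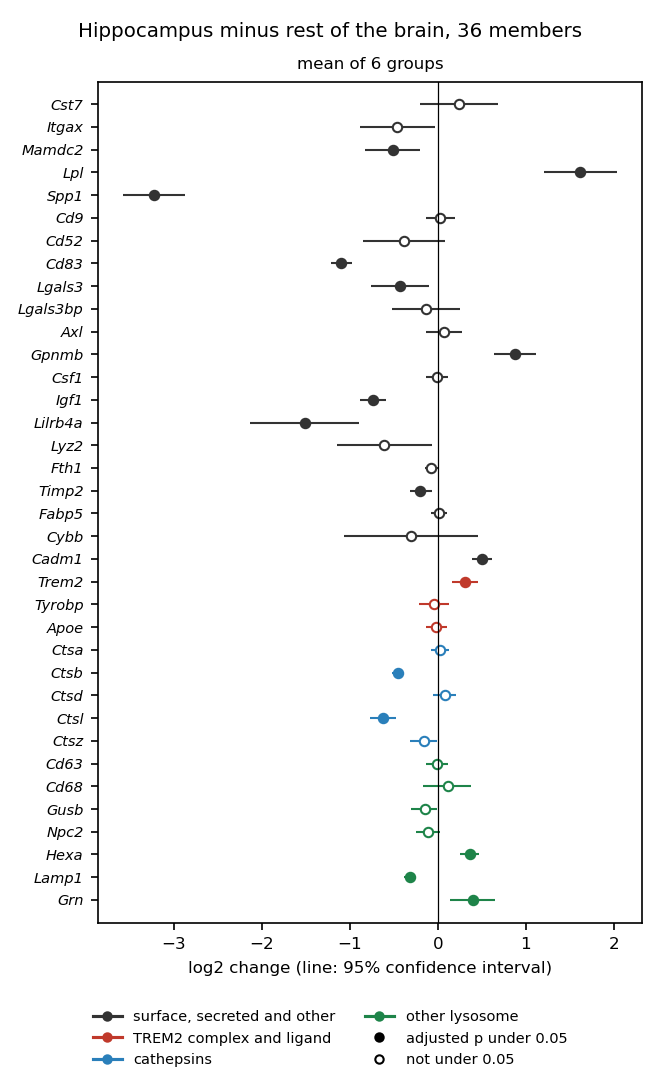
Change of each of the 36 members between the hippocampus and the rest of the brain, in log2 units, as the mean of the 6 groups with its 95% confidence interval. Filled points passed an adjusted p of 0.05: 6 members lie to the right and 10 to the left, with Spp1 at -3.23 the lowest.

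The remaining members had small or uneven changes. Cybb, the NADPH oxidase subunit of phagocytes, was well above background on 4 of 30 arrays, those of 3×TgAD-BKO male 0 and JHT female 14 in both tissues, at 4.31 to 5.55. Fth1, the ferritin heavy chain, was at 17.95 to 18.25 in the hippocampus and at 18.12 to 18.43 in the rest of the brain. The tetraspanin Cd9, the receptor tyrosine kinase Axl, the fatty acid carrier Fabp5, the surface antigen Cd52, the cathepsin Ctsd and the lysosomal genes Cd68, Gusb and Npc2 passed in none of the 21 comparisons.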

How the data were processed

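Hippocampus and rest of the brain of 15 mice were hybridised to 30 single-colour Agilent mouse arrays, whose annotation is of build mm9. Per the file headers, the deposited intensities are processed signals of Feature Extraction 12.0.3.1, with background and trends removed and no normalization between arrays. A second table deposited by the authors holds scores, which were Z scores of the log10 intensity within each array (correlation with the scanner values 1, median absolute difference up to 0.00254). The score table was used as an alternative.

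Of 62976 spots, 3671 controls were left out, spots of 1 probe were averaged, and 55681 probes gave 36717 genes and transcripts, each by its brightest probe. Intensities were taken to log2 and quantile-normalized over the 30 arrays. limma 3.58.1 (R 4.3.3) was fitted on the 15 arrays of a tissue with 6 groups of genotype and sex, or on 30 arrays with 12 groups for comparisons between tissues, with two-sided tests in 21 comparisons. The tests were checked on simulated data. No probe was saturated. A group whose arrays were all near background gives only a bound ("at least"), from the lowest signal well above background on each array. The number of arrays limits the precision.

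Groups came from the labels and slides from the array barcodes. The members and lists were chosen with earlier results of these data known. Values for each mouse are given for members past the threshold within a tissue, for the 5 with the largest change in each hippocampal female comparison of 3×TgAD with WT and of 3×TgAD-BKO with 3×TgAD, and for Trem2, Tyrobp and Apoe. For members past the threshold between the tissues, ranges or the change alone are given. Other members with such values were chosen after these were seen. The alternatives were other scalings, background corrections, probe choices, filters, slide blocks, fits and the methods' t-test, the mouse as a block, and the omission of each mouse. Markers of B cells other than Cd79a, Cd79b and Ms4a1, and a further allele of the 3×TgAD mice, are not reported here.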

Additional observations from a re-analysis of the deposited data

Results flagged for a closer look

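In 144 sets of 5 mice (36 members in the 3×TgAD and the 3×TgAD-BKO mice of each tissue, both sexes together), 13 had 1 mouse far from the others by Dixon's test, where chance gives about 1 in 20, or 7.2. In the hippocampus of 3×TgAD-BKO mice, the far values were lowest. They were Gpnmb at 7.61 in male 9 (the others at 7.95 to 8.08), Apoe at 17.01 in male 8 (17.49 to 17.64) and Grn at 10.82 in male 0 (12.20 to 12.68). In the hippocampus of 3×TgAD mice, male 4, an array high in choroid plexus markers, had Spp1 at 8.06 (6.39 to 6.80), Lgals3bp at 12.45 (11.32 to 11.58) and Fabp5 at 15.02 (15.15 to 15.19), and female 1 had Cd83 at 11.83 (11.39 to 11.49) and Lyz2 at 7.22 (6.28 to 6.55). In the rest of the brain, Mamdc2 was at 8.07 in 3×TgAD-BKO female 6 (7.74 to 7.80) and Lgals3bp at 12.90 in 3×TgAD-BKO male 0 (12.04 to 12.10). Among 3×TgAD mice there, Gpnmb was at 8.05 in male 4 (6.97 to 7.25), Cd63 at 14.83 in female 1 (14.63 to 14.68) and Gusb at 10.15 in male 3 (10.08 to 10.10).

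The change of Cst7 between 3×TgAD and WT females differed between the tissues by 4.17, past the threshold of the test of that difference (adjusted p = 0.0308, limma).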

How the results depend on the processing

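The call of Trem2 over both sexes of 3×TgAD-BKO and 3×TgAD mice in the rest of the brain kept its direction and its side of the threshold under all alternatives run, with adjusted p-values of 0.00179 to 0.0252 (limma). Over all alternatives, 1327 values for single members kept direction and side, while 46 lost the threshold, 40 gained it and 35 changed sign. Groups of 2 or 3 mice and the overlap of slide and genotype limit all comparisons.

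The number of members past the threshold in the hippocampus moved as follows. Between 3×TgAD and WT females it was 2, and it was 0 with the slide as a random block, 1 with the methods' t-test, 0 without the 4 arrays high in choroid plexus markers (chosen after seeing the data, as were the omission of males 0 and 8 and the values within the slide of the 3×TgAD mice), and 0 to 1 when each mouse was left out, the 1 being Igf1 without WT female 11. With the slide as a fixed block it was 3, with other members than the first 2, and over all genes 1516 were then higher and 1744 lower against 156 and 118. Between 3×TgAD-BKO and 3×TgAD mice it was 0 in all forms. With the slide as a fixed block it became 1 in females (over all genes 109 higher and 118 lower, against 61 and 75), 13 in males (3582 and 2064, against 222 and 89) and 4 over both sexes (2390 and 1762, against 219 and 155), and with all 30 arrays in one fit 3, 3 and 2 (357, 1281 and 637 of all genes were then higher, against 61, 222 and 219, and more were lower too). Within the slide of the 3×TgAD mice it was 7 in males (2785 and 1683 of all genes) and 6 over both sexes (1915 and 1433), it was 1 over both sexes with normexp and 1 without males 0 and 8, and 0 to 1 in males and over both sexes when each mouse was left out. In each tissue that slide holds 1 3×TgAD-BKO male, which is assumed to vary like the other mice. Other hippocampal comparisons had 0. They moved to 1 for JHT against WT (all 30 arrays, with 90 of all genes higher and 42 lower against 28 and 6), to 4 for 3×TgAD-BKO against JHT (slide fixed, 1426 and 1498 against 46 and 38), to 1 for the interaction (slide fixed, 44 and 45, or all 30 arrays, 218 and 301, against 22 and 26) and to 1 for female against male 3×TgAD mice (all 30 arrays, 38 and 9 against 11 and 4). For the sex difference, where 1 and 8 of all genes passed, they moved to 1 with the filter on dim probes (578 and 397), 8 with the slide fixed (2102 and 2804), 5 with all 30 arrays (1331 and 1694) and 0 to 2 without 1 mouse.

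In the rest of the brain the count was 1 between 3×TgAD and WT females and became 0 with the slide fixed, the groups compared alone, all 30 arrays or the t-test. Between 3×TgAD-BKO and 3×TgAD females 0 became 1 with the slide fixed and 1 within the slide of the 3×TgAD mice (557 and 457, and 312 and 321 of all genes, against 260 and 151). In males 1 became 2 with the filter, with the slide fixed and within that slide (275 and 251, 791 and 269, and 643 and 201 of all genes, against 193 and 160), 0 with the groups compared alone, all 30 arrays, the t-test or without males 0 and 8, and 0 to 3 without 1 mouse. Over both sexes 1 became 3 with the slide fixed and within that slide (1416 and 805, and 1226 and 680 of all genes, against 560 and 408), and 1 to 3 without 1 mouse. JHT against WT went from 0 to 1 with the slide fixed (62 and 29 of all genes, against 37 and 22). For 3×TgAD-BKO against JHT 1 became 0 with the groups compared alone, all 30 arrays or the t-test, and 1 to 2 without 1 mouse. Between the tissues 16 became 35 with quantile normalization within each tissue (where 956 of all genes were higher and 28949 lower, against 9226 and 9547) and 15 to 20 without 1 mouse. The tissue difference of 3×TgAD against WT went from 1 to 0 with the 75th percentile and 0 to 0 without 1 mouse. The t-test was not run for the interaction and sex-difference contrasts, which have no unpaired form.

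Values that changed sign were, between the tissues with quantile normalization within each tissue, Gpnmb -0.06, Cadm1 -0.56, Trem2 -0.74, Hexa -0.68 and Grn -0.65, and Timp2 0.06 and Lamp1 0.02 as given above, while Apoe was 0.46 with the 75th percentile, 0.18 with the scores and -0.05 to 0 without 1 mouse. Trem2 between 3×TgAD and WT females in the hippocampus was -0.42 with the slide fixed, -0.06 with it random and -0.10 to 0.31 without 1 mouse. Tyrobp was -0.17 there with the slide fixed, and Itgax -1.89 with the slide fixed and -0.39 with it random. With B-cell loss in hippocampal females, Trem2 was 0.19 and Tyrobp 0.06 without the choroid plexus arrays, and they were -0.34 to 0.19 and -0.36 to 0.06 without 1 mouse. In the rest of the brain, Apoe between 3×TgAD and WT females was 0.03 with the 75th percentile, 0.04 with the slide fixed and -0.09 to 0.08 without 1 mouse. With B-cell loss in females it was -0.24 with the 75th percentile, -0.01 with the scores and -0.05 to 0.12 without 1 mouse, and Mamdc2 was -0.26 to 0.01. The sex difference of Trem2 there was 0.03 without males 0 and 8. In the hippocampus, values with the slide fixed rest on 3×TgAD-BKO male 0 against males 8 and 9. The cause of these changes of sign was not tested.

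The 2 arrays of a mouse share its number. With the mouse as a replicate block the tissue difference of Cst7 was 4.17 (adjusted p = 0.0208, limma) and 17 members differed between the tissues, and no other call changed. Deviations of the paired arrays from their group means correlated with a median of 0.104 (-0.05 to 0.3), above 0.1 in 8 of 15 mice.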

Other observations

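Among markers of other cells that were read beside the members, Cldn5, a tight junction protein of brain endothelium, was higher with B-cell loss on the 3×TgAD background over both sexes, in the hippocampus (change 1.16, SE 0.16, adjusted p = 0.00812, limma) and in the rest of the brain (change 1.05, SE 0.18, adjusted p = 0.0125, limma). Between 3×TgAD and WT females in the hippocampus it changed by -1.22 (SE 0.23, adjusted p = 0.0463, limma). Both comparisons share the 3×TgAD females. The border macrophage markers Cbr2, a carbonyl reductase, and F13a1, a coagulation factor subunit, were higher in 3×TgAD-BKO mice over both sexes in the hippocampus, each by 1.38 (adjusted p = 0.0307 and 0.0454, limma).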
